A study of Arabidopsis thaliana with 15 samples.

Results

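The nuclear genes for photosystem subunits and for the Calvin cycle were followed across 5 Arabidopsis genotypes as a set of 46 locus identifiers among the 33601 genes of the deposited count table. The set held 6 LHCA genes for the antenna of photosystem I, 6 LHCB genes (LHCB3, LHCB4.1, LHCB4.2, LHCB4.3, LHCB5 and LHCB6) for the smaller antenna proteins of photosystem II, 11 further photosystem II genes, 12 photosystem I genes, 5 genes for the Rubisco small subunit and Rubisco activase, and 6 genes for Calvin cycle enzymes. The genes were chosen by what they encode, but with earlier results of these data known. The major antenna genes LHCB1 and LHCB2 were left out of the set. All 46 passed the filter on low counts.

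All plants were Arabidopsis thaliana of the ecotype Columbia-0, and all libraries came from whole rosettes of 20 days, grown at 23 °C with a day of 16 h light and a night of 8 h, and cut 6.5 h after subjective dawn. The genotypes were the wild type (WT), ref4-1 and ref4-3, which are alleles of the Mediator subunit gene MED5B, cdk8-1, an allele of the gene for the Mediator kinase CDK8, and the double mutant ref4-3 cdk8-1. Each genotype had 3 libraries of polyadenylated RNA, each from 5 rosettes pooled from different pots, so the p-values measure the spread between pools of plants, and the labels give no repeat of the growth itself. In bulk rosettes, fewer cells of a type and less RNA per cell cannot be told apart.

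Photosystem II takes electrons from water and photosystem I passes them on to ferredoxin, and both are fed with light energy by chlorophyll-binding antenna proteins of the LHC family. The Calvin cycle uses the products of this electron flow to fix carbon dioxide, a step made by Rubisco, whose small subunit is encoded in the nucleus by the RBCS genes. The nuclear genes of these complexes are known to be induced by light, and many of the antenna and photosystem genes also by the GLK transcription factors. Other subunits of the same complexes are encoded in the plastid. Mediator carries signals from DNA-bound regulators to RNA polymerase II, and CDK8 belongs to a kinase module that can leave the complex.

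Promoter windows of 4 genes are shown: those of LHCA4, PSAH2 and RBCS2B because they carry both a G-box and an I-box, motifs of light-regulated promoters, and that of LHCB4.3, 1 of 17 windows with neither, because LHCB4.3 was the gene of the set that rose in ref4-3. Each runs 5′ to 3′ on the strand of its gene from 250 bases before to 50 bases after the annotated start, read from TAIR10.1, with G-boxes (CACGTG) and I-boxes (GATAAG, or CTTATC on the other strand) in capitals. The window of LHCA4 lies at chr3:17494984-17495283 on the minus strand, that of LHCB4.3 at chr2:16745378-16745677 on the plus strand, that of PSAH2 at chr1:19454548-19454847 on the plus strand and that of RBCS2B at chr5:15382022-15382321 on the minus strand.
LHCA4: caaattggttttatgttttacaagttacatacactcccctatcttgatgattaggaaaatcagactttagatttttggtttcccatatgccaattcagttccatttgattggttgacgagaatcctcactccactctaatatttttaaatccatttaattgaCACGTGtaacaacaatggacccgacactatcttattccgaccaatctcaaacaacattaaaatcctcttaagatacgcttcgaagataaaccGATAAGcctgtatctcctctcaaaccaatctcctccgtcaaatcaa
LHCB4.3: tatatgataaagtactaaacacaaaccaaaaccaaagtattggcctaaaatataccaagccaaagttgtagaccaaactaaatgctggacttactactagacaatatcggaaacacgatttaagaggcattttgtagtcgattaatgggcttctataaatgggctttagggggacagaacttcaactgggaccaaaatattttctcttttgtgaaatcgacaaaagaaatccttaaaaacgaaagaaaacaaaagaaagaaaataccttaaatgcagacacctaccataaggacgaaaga
PSAH2: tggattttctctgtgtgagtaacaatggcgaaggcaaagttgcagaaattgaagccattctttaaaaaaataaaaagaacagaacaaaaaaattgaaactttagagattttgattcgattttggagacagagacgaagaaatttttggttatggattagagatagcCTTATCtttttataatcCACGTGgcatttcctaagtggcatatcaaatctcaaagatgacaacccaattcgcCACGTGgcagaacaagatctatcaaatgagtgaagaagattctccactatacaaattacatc
RBCS2B: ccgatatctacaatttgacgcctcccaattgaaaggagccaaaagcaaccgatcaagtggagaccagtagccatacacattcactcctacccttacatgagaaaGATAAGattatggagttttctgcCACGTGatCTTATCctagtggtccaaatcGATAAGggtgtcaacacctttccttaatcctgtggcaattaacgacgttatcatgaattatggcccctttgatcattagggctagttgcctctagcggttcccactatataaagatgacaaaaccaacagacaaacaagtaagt
LHCA4 had a G-box whose first base lay at position -88 from the start and an I-box at position 5, PSAH2 had G-boxes at -67 and -12 with an I-box at -84, and RBCS2B had a G-box at -123 between I-boxes at -146, -115 and -94. The LHCB4.3 window held none of these letters.

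Over the whole set, 17 of the 46 windows (37.0%) held a G-box, against 7.68% of 27443 windows of protein-coding genes, and 22 (47.8%) held an I-box, against 14.65%. The letters CCAATC were in 11 windows (23.9%, against 12.35%), and the evening element AAAATATCT was in 1 window, that of LHCA5 (2.17%, against 2.82%). All 4 motifs were searched on both strands, and none of them contains another. G-boxes were in 7 of the 11 windows of photosystem II genes, and I-boxes in 8 of the 12 windows of photosystem I genes. Both motifs were in 10 windows (LHCA4, LHCB4.1, LHCB6, PSBQ1, PSBQ2, PSBTN, PSAH1, PSAH2, RBCS2B and cpFBPase), and 17 had neither, among them those of LHCB3 and PSAN, which fell in ref4-3 by 1.26 and 1.07 on the log2 scale, and that of LHCB4.3, which rose. A match of letters is a description of the window and not a binding site.

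Library totals ran from 9573567 to 16803904 gene counts, so that 1 count was worth 0.0583 to 0.106 CPM, the count scaled to a common library size. CDK8 stood at 20.5, 18.0 and 19.9 CPM in WT, 4.39, 4.43 and 4.70 in cdk8-1 and 6.58, 5.27 and 4.38 in ref4-3 cdk8-1, low where the labels give the mutation. MED5B stood at 24.8 ± 3.61 CPM (mean ± SD, n = 3) in WT and 29.9 ± 0.921 in ref4-3, where a transcript level cannot check the allele. The third library of ref4-1 and the first of cdk8-1 stood apart. Reads not uniquely placed came to 6.62 and 5.88% of their gene counts, against 2.37 to 3.29% in the other 13 libraries. The summed level of 10 plastid loci, whose identifiers begin with ATCG, was 329 and 322 CPM in these libraries and 61.5 to 136 CPM in the others, and its part in the results was not tested. The third ref4-1 library also had the smallest total and was the highest of its group for 45 of the 46 genes, and the median coefficient of variation of the 46 was 11.54% in ref4-1 against 2.74 to 5.07% in the other genotypes. The third library of ref4-3 was the lowest of its group for 36 genes. Whether counting used the strand is not given in the sources used here, and 17 of the 46 genes overlap a gene on the other strand (LHCA4, LHCA5, LHCB3, LHCB4.2, LHCB6, PSBP1, PSBR, PSAE1, PSAE2, PSAG, PSAH1, PSAH2, PSAN, RCA, PRK, cpFBPase and PGK1) and 3 a gene on the same strand (PSBP1, PSAD2 and GAPA1), so that their counts could hold or lose reads of a neighbour.

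Markers of other cell types were measured in the same libraries. The 3 phloem markers summed to 176 to 189 CPM in WT, 228 to 284 in ref4-1, 242 to 265 in ref4-3, 159.7 to 170.1 in cdk8-1 and, in the double mutant, 234 to 272, and the 4 xylem markers summed to 79.9 to 92.2, 54.6 to 65.4, 51.03 to 73.2, 122 to 136 and 97.3 to 130.3 CPM in the same order. The 5 root markers summed to 173 to 245, 122 to 182, 128 to 150.3, 318 to 390 and 168 to 207 CPM, nearly all of it from PYK10, while EXPA7 was at 0 in WT, ref4-1, ref4-3, cdk8-1 and ref4-3 cdk8-1 and COBL9 in all of them but ref4-1. Most of the phloem sum was SUC2, at 152 ± 9.05 CPM (mean ± SD, n = 3) in WT, 219 ± 9.14 in ref4-3 and 126 ± 3.96 in cdk8-1, while APL stood at 13.3 ± 0.401, 13.5 ± 1.41 and 14.1 ± 0.923, and SMXL5 was at 17.5 ± 2.90 in WT and 26.1 ± 2.17 in cdk8-1. The xylem rise in cdk8-1 was mostly XCP1, at 23.2 ± 1.35 CPM in WT and 53.5 ± 3.17 in cdk8-1. XCP2 also lay above WT in all cdk8-1 libraries, while IRX1 and IRX3 overlapped with WT there. Guard cell markers (3 genes) summed to 39.9 to 43.4, 34.6 to 37.9, 29.1 to 35.4, 38.4 to 44.9 and 33.2 to 38.8 CPM. Epidermis markers (2 genes) summed to 203 to 227, 191 to 266, 179 to 221, 204 to 259 and 172 to 188 CPM, and ATML1, 1 of the 2, stood at 71.8, 86.5 and 75.7 CPM in WT, 57.6, 47.2 and 52.2 in ref4-3 and 108, 91.7 and 102 in cdk8-1. Flower organ markers (4 genes) summed to at most 2.88 and seed storage markers (3 genes) to at most 0.929. SUC2, XCP1, XCP2, PYK10, ATML1 and the guard cell sum thus differed between genotypes beside the genes described here, without every marker of a list doing the same. Their part in the results was not tested.

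In WT, transcript levels per kilobase of exon spanned from 10424 CPM per kb for RBCS1A to 42.5 for LHCB4.3. RBCS1A stood alone at the top, followed by PSBR (4026), RBCS3B (3858), LHCB5 (3303) and LHCA4 (3149). At the bottom were SBPASE (426), LHCA5 (153), LHCA6 (92.4) and LHCB4.3. Together the 46 genes held 9.51 to 10.06% of all gene counts in the 3 WT libraries, 7.64 to 9.32% in ref4-1, 7.16 to 7.59% in ref4-3, 10.88 to 11.3% in cdk8-1 and, in the double mutant, 9.02 to 9.06%. The libraries of WT, ref4-3, cdk8-1 and ref4-3 cdk8-1 did not overlap in this share, which was lowest in ref4-3 and highest in cdk8-1.

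**Figure D1:**
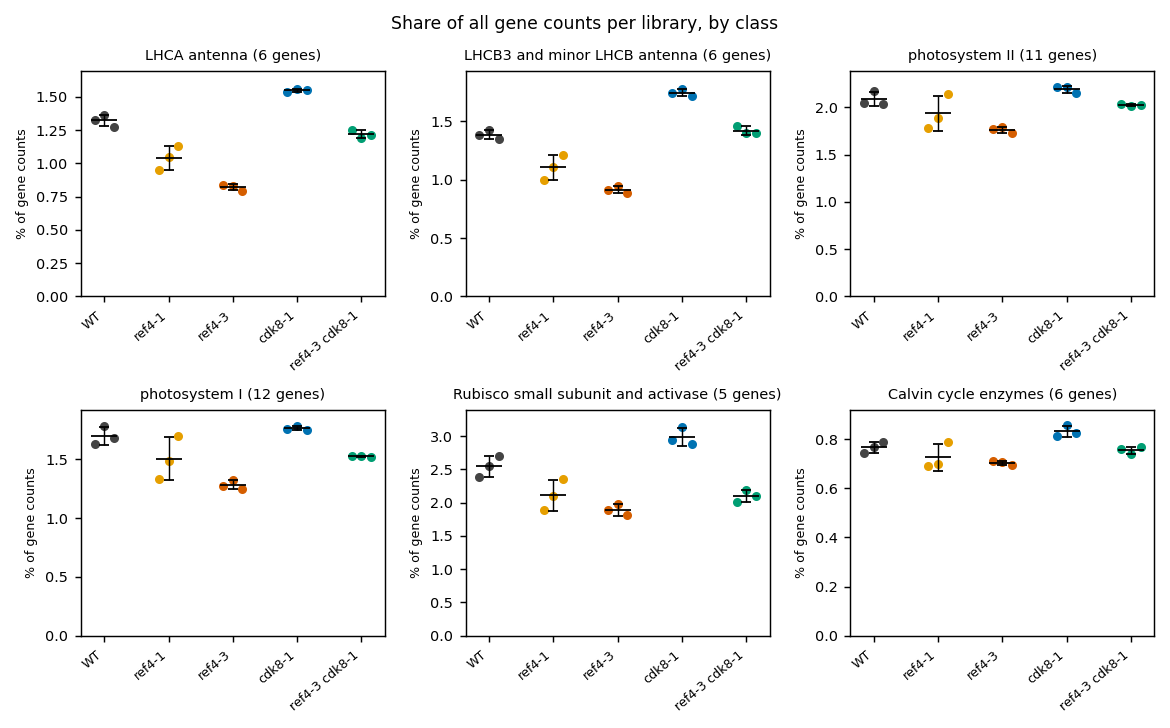
Share of all gene counts (percent, linear axis from 0) in each of the 6 gene classes, 1 point per library, with the mean and SD of the 3 libraries per genotype. In ref4-3 every class lies below WT, and in ref4-3 cdk8-1 every class lies above ref4-3. The ref4-3 cdk8-1 libraries all lie below WT for the LHCA, photosystem II, photosystem I and Rubisco classes. They overlap with WT for the LHCB and Calvin cycle classes.

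The comparisons with WT ask how each Mediator mutation changes the set, and a gene was called when its adjusted p was under 0.05 (edgeR quasi-likelihood test, Benjamini-Hochberg over 18935 genes, n = 3 per genotype). In ref4-3, 40 of the 46 genes fell and 1 rose (LHCB4.3), where 19.6% of all tested genes were called lower and 20.3% higher. The median log2 change of the 46 was -0.52 beside 0.02 for all tested genes, and for 43 of the 46 all ref4-3 libraries lay below all WT libraries, as they did for 23.7% of all tested genes. The 5 genes without a call were LHCA6, PSBO2, PSBS, PSAD1 and GAPB. All 40 falls were called again whichever 1 of the 15 libraries was left out, and 5 of them (LHCB4.1, PSBO1, PSBR, GAPA1 and PGK1) were not called when libraries were scaled by their totals only.

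In ref4-1, the other MED5B allele, 27 genes fell and LHCB4.3 rose, beside 10.2% of all genes lower and 10.7% higher, with a median of -0.26. This count was 13 when only the ref4-1 and WT libraries entered the fit, and 18 of the 27 falls held whichever library was left out. Without the third ref4-1 library, which stood apart, 38 genes fell. LHCA2, PSBR, PSBW, PSBY, PSAD2, PSAG, PSAK, PSAL and PRK lost the call without at least 1 library. Against ref4-1, 24 genes were lower in ref4-3 and none higher (at an unadjusted p under 0.05, 0; with DESeq2 and limma-voom, none), beside 6.39% of all genes lower and 4.52% higher. That count was 19 without the third ref4-1 library, 14 without the third ref4-3 library and 5 when only these 2 genotypes were fitted. A graded order, lower in ref4-1, lower in ref4-3 and lower in ref4-3 than in ref4-1, was called for 18 genes. They were LHCA1 to LHCA4, LHCB3, LHCB4.2, LHCB5, LHCB6, PSBQ1, PSBW, PSBY, PSAD2, PSAH2, PSAK, PSAN, PSAO, RBCS3B and RCA. LHCA2, LHCB5, PSBQ1, PSBW, PSBY, PSAD2, PSAK, RBCS3B and RCA lost at least 1 of these calls without at least 1 library. The share of all tested genes with this order was not counted.

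In cdk8-1, no gene of the set fell and 11 rose (LHCA1, LHCA4, LHCB3, LHCB4.2, LHCB5, LHCB6, PSBS, RBCS1A, RCA, GAPB and SBPASE), beside 11.8% of all genes lower and 8.06% higher. At an unadjusted p under 0.05, 0 genes were lower in edgeR, and DESeq2 and limma-voom called none lower. LHCA1, LHCA4, LHCB3, LHCB4.2 and RCA were called whichever library was left out, and the count was 8 without the first cdk8-1 library, which stood apart (LHCB6, PSBS and RBCS1A lost the call), 16 without the third ref4-1 library, 5 without the second cdk8-1 library and 7 without the third cdk8-1 library or any 1 of the WT libraries.

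In ref4-3 cdk8-1, 26 genes were lower than in WT and 2 higher (LHCB4.2 and PSBS), beside 21.6% of all genes lower and 21% higher, with a median of -0.22. With library totals as the only scaling 16 were lower (LHCA1, PSBW, PSBTN, PSAD2, PSAH1, PSAO, RBCS1A, PRK, GAPA1 and SBPASE lost the call), and the median of all tested genes then stood at 0.14. GAPA1, PSAD2, PSAN, PSAO, PSBTN, PSBW, RBCS1A and SBPASE among the falls, and LHCB4.2 among the rises, lost the call without at least 1 library.

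The double mutant against each single mutant asks what the second mutation adds. Against ref4-3, 26 genes were higher in ref4-3 cdk8-1 and 1 was lower (LHCB4.3), beside 15.9% of all genes higher and 17% lower. LHCA2, PSBO1, PSBP1, PSAE1 and PSAF lost this call without at least 1 library. All 26 were among the 40 of the 46 genes that had fallen in ref4-3. Both comparisons use the same ref4-3 libraries, so chance low values there would favour both calls. The joint counts were not made over all tested genes. Of the 26, 10 (LHCA4, LHCA5, LHCB3, LHCB5, PSBO1, PSBP1, PSBX, PSAE2, PSAK and cpFBPase) had no call in ref4-3 cdk8-1 against WT. A further 15 were still lower than WT, and LHCB4.2 was higher than WT. The other 14 that fell in ref4-3 had no call between ref4-3 cdk8-1 and ref4-3: LHCB4.1, PSBQ1, PSBR, PSBY, PSAG, PSAH1, PSAL, the 4 RBCS genes, PRK, GAPA1 and PGK1. Against cdk8-1, 37 genes were lower in ref4-3 cdk8-1 and none was higher (at an unadjusted p under 0.05, 0; with DESeq2 and limma-voom, none), beside 16.4% of all genes lower and 16.4% higher. Without the first cdk8-1 library 34 were lower. Of the 37, 11 lost the call without at least 1 library (PSBP1, PSBQ2, PSBX, PSAE2, PSAF, PSAG, PSAK, PSAO, GAPA1, GAPB and cpFBPase), and the same genes and PGK1 lost it with library totals as the only scaling.

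**Figure D2:**
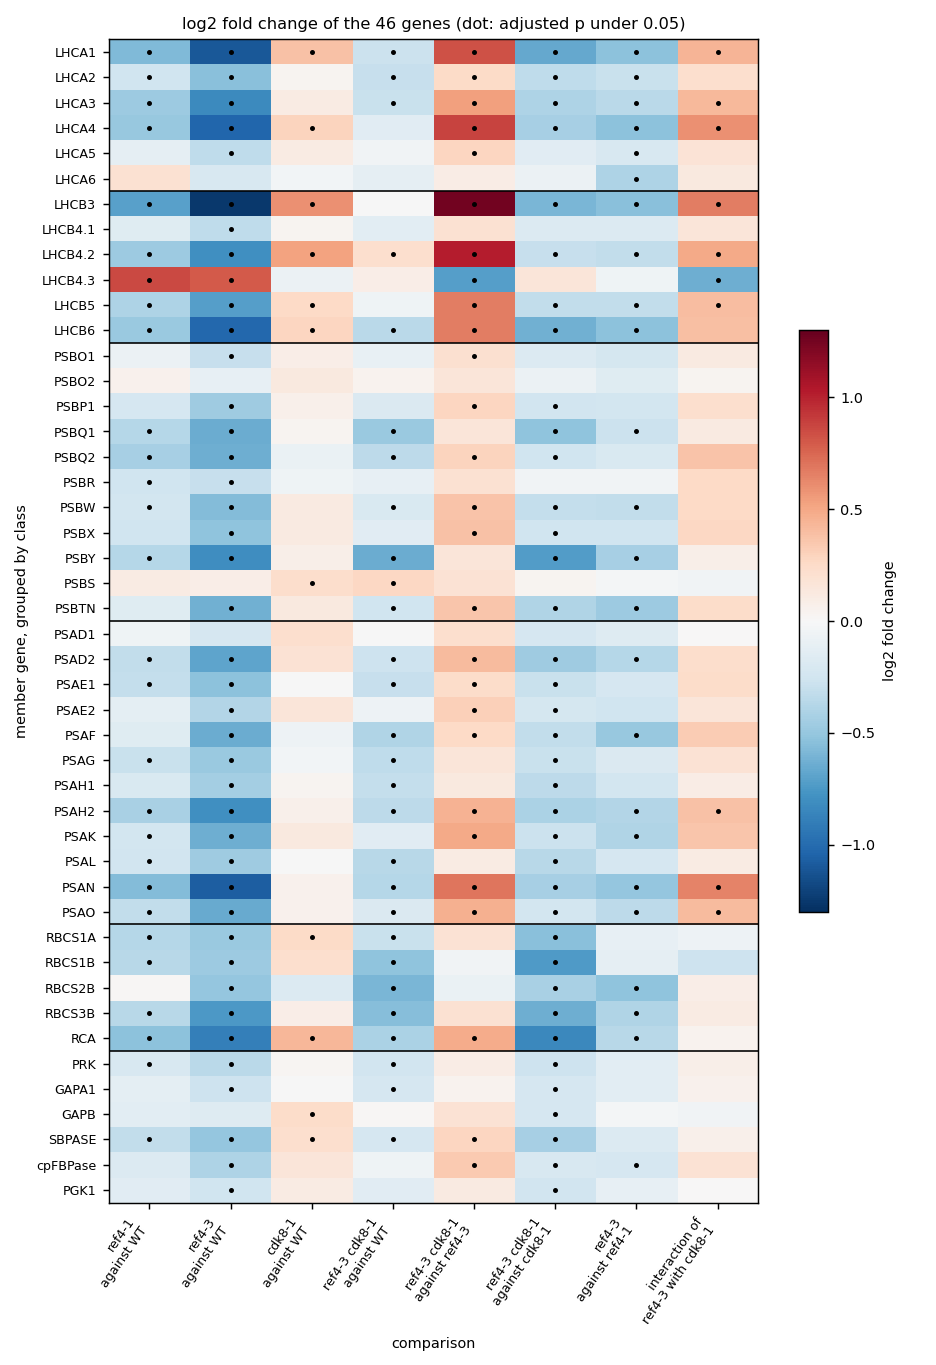
Log2 fold change (colour, from -1.3 in blue to 1.3 in red) of the 46 genes in rows, grouped by class, for 8 comparisons in columns, with a dot where the adjusted p was under 0.05. The column of ref4-3 against WT is blue for all genes but LHCB4.3 and PSBS, and the column of ref4-3 cdk8-1 against ref4-3 is red for most antenna genes and pale for the RBCS genes.

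The LHCA proteins form the antenna belt of photosystem I, with LHCA1 paired to LHCA4 and LHCA2 to LHCA3, and all 4 of these genes fell in both MED5B mutants. LHCA1 (AT3G54890, chr3:20339504-20341176) stood at 3275, 3406 and 2999 CPM in WT, 1976, 2181 and 2356 in ref4-1, 1576, 1515 and 1404 in ref4-3, 4122, 4185 and 4331 in cdk8-1 and 2744, 2575 and 2664 in ref4-3 cdk8-1. LHCA4 (AT3G47470, chr3:17493343-17495033), the LHCA gene with the highest level per kilobase, stood at 4059.8, 4326 and 3845 CPM in WT, 2656, 2828 and 3179.7 in ref4-1, 2007, 2039.5 and 1954 in ref4-3, 4857, 5028 and 5088 in cdk8-1 and 3788, 3526 and 3755 in ref4-3 cdk8-1. For both genes the ref4-3 libraries were the lowest, those of ref4-1 came next and those of cdk8-1 were the highest, with no overlap of any of these groups with WT. LHCA1 changed by -0.57 ± 0.074 (log2 fold change ± SE) in ref4-1, -1.11 ± 0.075 in ref4-3 (adjusted p = 2.46e-09) and 0.38 ± 0.074 in cdk8-1, and LHCA4 by -0.50 ± 0.072, -1.03 ± 0.073 (adjusted p = 4.35e-09) and 0.29 ± 0.072. In ref4-3 they were thus at 46.4% and 49.1% of WT. In ref4-3 cdk8-1, LHCA1 was still below WT (-0.28 ± 0.074), a call it lost with library totals as the only scaling, while LHCA4 was not called (-0.14 ± 0.072, adjusted p = 0.118).

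LHCA2 and LHCA3 fell in ref4-3 by less, with -0.55 ± 0.082 and -0.82 ± 0.069. The low-level members LHCA5 and LHCA6, whose proteins attach the NADH dehydrogenase-like complex to photosystem I, behaved less alike. LHCA5 had 164 ± 7.59 CPM in WT and 131 ± 0.835 in ref4-3 (-0.33 ± 0.059). LHCA6 had 107 ± 6.28 and 93.1 ± 8.08 CPM in these genotypes, without a call (-0.21 ± 0.10, adjusted p = 0.112), and was called only as lower in ref4-3 than in ref4-1 (-0.40 ± 0.10), a call that was lost without the third library of ref4-1 or the third of ref4-3.

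LHCB3, LHCB4, LHCB5 and LHCB6 encode the antenna proteins that sit between the core of photosystem II and the main LHCII trimers, LHCB3 as a part of one kind of trimer and the others as monomers. LHCB3 (AT5G54270, chr5:22038165-22039568) had the greatest fall of the set in ref4-3 and the greatest rise of the set in cdk8-1. It stood at 3288, 3629 and 3186 CPM in WT, 1913, 1957 and 2319 in ref4-1, 1382, 1522 and 1328 in ref4-3, 5001, 5184 and 5044 in cdk8-1 and 3523, 3226 and 3337 in ref4-3 cdk8-1. No groups overlapped except WT and ref4-3 cdk8-1, whose libraries lay within the range of WT. LHCB3 was at 41.9% of WT in ref4-3 (-1.26 ± 0.082, adjusted p = 1.42e-09) and at 151% in cdk8-1 (0.59 ± 0.081, adjusted p = 3.6e-05), while its log2 difference from WT in the double mutant was -0.0025 ± 0.080.

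LHCB5 (AT4G10340, chr4:6408007-6409849), the highest of these genes per kilobase, stood at 4561, 4817 and 4385 CPM in WT, 3218, 3417 and 3780.1 in ref4-1, 2789.7, 2952 and 2617 in ref4-3, 5346, 5596 and 5582 in cdk8-1 and 4615, 4263 and 4331 in ref4-3 cdk8-1. LHCB6 (AT1G15820, chr1:5446462-5447880) stood at 2456, 2369 and 2292 CPM in WT, 1456, 1657 and 1985 in ref4-1, 1169, 1231 and 1112 in ref4-3, 2951, 2934 and 2737 in cdk8-1 and 1898, 1815 and 1866 in ref4-3 cdk8-1. Both fell in ref4-3 (-0.72 ± 0.073 and -1.02 ± 0.087), with all ref4-3 libraries below all ref4-1 libraries. In ref4-3 cdk8-1 LHCB5 overlapped with WT (-0.06 ± 0.073), while all LHCB6 libraries lay below WT (-0.35 ± 0.086, adjusted p = 0.00316).

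The 3 genes for LHCB4 went different ways. LHCB4.1 (AT5G01530) stood at 3307, 3276 and 3118 CPM in WT, 2508, 2992 and 3215 in ref4-1, 2531, 2708 and 2454 in ref4-3, 3440.5, 3348 and 3173 in cdk8-1 and 2978, 2887 and 2949 in ref4-3 cdk8-1. LHCB4.2 (AT3G08940) stood at 1004, 1039 and 957 CPM in WT, 659, 687 and 817 in ref4-1, 552, 591 and 584 in ref4-3, 1441, 1467 and 1404 in cdk8-1 and 1219, 1137 and 1141 in ref4-3 cdk8-1. LHCB4.3 (AT2G40100, chr2:16745628-16747424), also known as LHCB8, stood at 62.6, 57.8 and 64.4 CPM in WT, 89.6, 108 and 138 in ref4-1, 108, 101 and 113 in ref4-3, 52.8, 66.1 and 56.5 in cdk8-1 and 64.3, 65.3 and 66.5 in ref4-3 cdk8-1. LHCB4.3 was thus high in all libraries of both MED5B mutants and near WT in cdk8-1 and the double mutant. It rose by 0.85 ± 0.11 in ref4-1 (adjusted p = 2.81e-05) and 0.80 ± 0.11 in ref4-3 (adjusted p = 2.18e-05), where it was at 174% of WT. It was lower again in ref4-3 cdk8-1 than in ref4-3 (-0.71 ± 0.11, adjusted p = 7.15e-05). LHCB4.2 fell in ref4-3 (-0.80 ± 0.074) and rose in cdk8-1 (0.52 ± 0.074), while LHCB4.1 fell in ref4-3 (-0.33 ± 0.079) and had no call in the other comparisons. LHCB4.3, the lowest-expressed gene of the set and a known high-light isoform, was singled out after its values were seen.

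**Figure D3:**
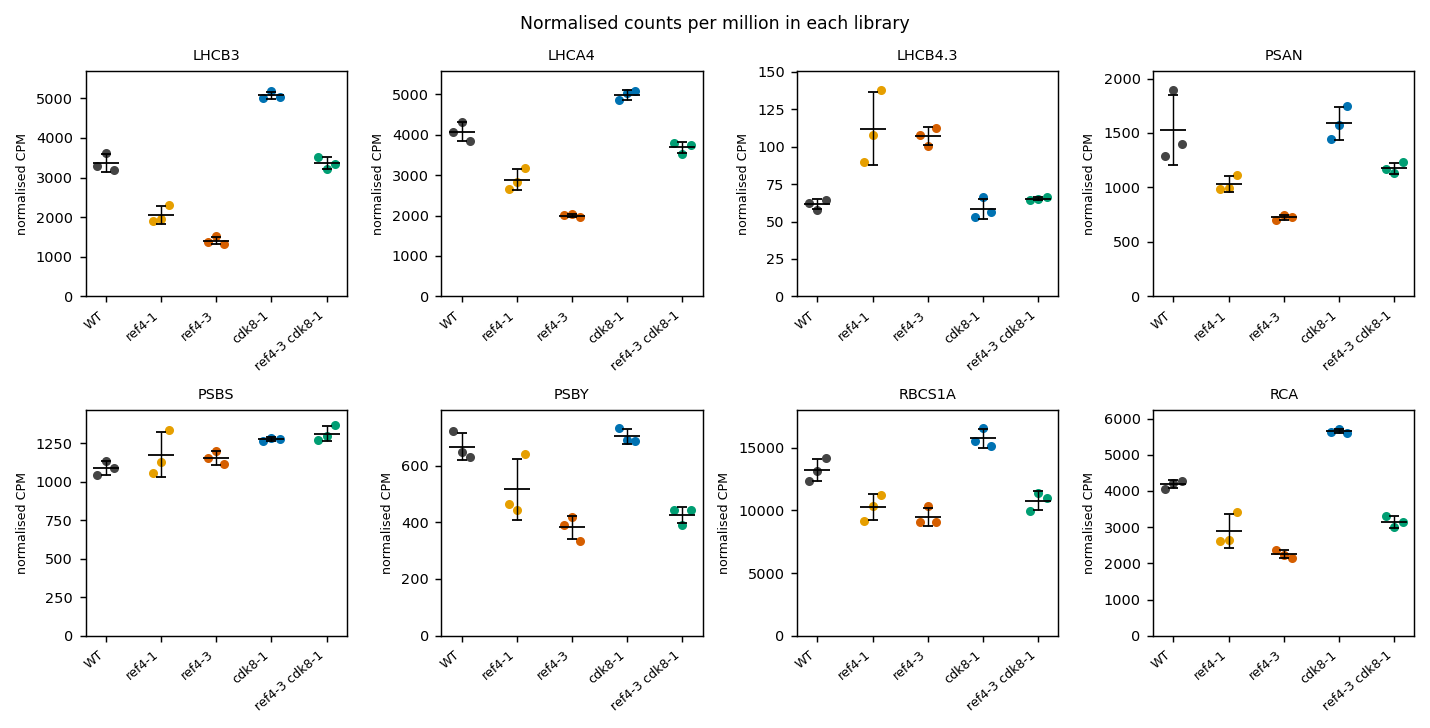
Normalised CPM (linear axis from 0) in each library of 8 genes, with the mean and SD of the 3 libraries per genotype. LHCB3 and LHCA4 are low in ref4-1 and ref4-3 and high in cdk8-1. LHCB4.3 is high in ref4-1 and ref4-3 and overlaps with WT in cdk8-1, and PSBS is not lower in ref4-3. In ref4-3 cdk8-1 all libraries of LHCA4, PSAN, PSBY, RBCS1A and RCA lie below WT.

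Of the 11 photosystem II genes, 9 fell in ref4-3, 5 fell in ref4-1 and 5 were below WT in ref4-3 cdk8-1. These calls stood beside 19.6, 10.2 and 21.6% of all tested genes called lower. PSBS rose in cdk8-1 and ref4-3 cdk8-1. PSBO, PSBP and PSBQ form the lumenal shield of the oxygen-evolving cluster, and PSBR helps to hold it. PSBR (AT1G79040), the highest of the 11 per kilobase, stood at 3282, 3281 and 2905 CPM in WT, 2390.4, 2567 and 2962 in ref4-1, 2478, 2738 and 2449.9 in ref4-3, 3098, 3005 and 2987 in cdk8-1 and 2931, 2929 and 2926 in ref4-3 cdk8-1. Its ref4-3 libraries lay below WT (-0.30 ± 0.078, adjusted p = 0.00465) and those of ref4-3 cdk8-1 overlapped with WT (-0.11 ± 0.078). PSBP1 had 3816 ± 155 CPM in WT and 2770.2 ± 148 in ref4-3 (-0.46 ± 0.081).

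PSBQ1 (AT4G21280) stood at 1308, 1378 and 1323 CPM in WT, 958, 1028 and 1124 in ref4-1, 853, 909.7 and 805 in ref4-3, 1367, 1403 and 1351 in cdk8-1 and 974, 931 and 957 in ref4-3 cdk8-1. PSBQ2 (AT4G05180) stood at 2189.8, 2747 and 2244 CPM in WT, 1721, 1699 and 1912 in ref4-1, 1492, 1556 and 1588 in ref4-3, 2336, 2227 and 2212 in cdk8-1 and 1905, 1818 and 1941 in ref4-3 cdk8-1. Both fell by nearly the same in ref4-3 (-0.64 ± 0.067 and -0.63 ± 0.080), and the second WT library was high for PSBQ2. In ref4-3 cdk8-1 both were below WT in all libraries (-0.49 ± 0.066 and -0.34 ± 0.080). PSBO1 (AT5G66570) stood at 4479.9, 4418 and 4149 CPM in WT, 3782, 4047 and 4555 in ref4-1, 3675, 3587 and 3328 in ref4-3, 4769, 4731 and 4356 in cdk8-1 and 4190.4, 3976 and 4053 in ref4-3 cdk8-1. PSBO2 (AT3G50820) stood at 1119, 1099.7 and 1045 CPM in WT, 1041, 1073 and 1271 in ref4-1, 1046, 989.7 and 994 in ref4-3, 1192, 1191 and 1168 in cdk8-1 and 1150.5, 1082 and 1143 in ref4-3 cdk8-1. PSBO1 fell in ref4-3 (-0.30 ± 0.074, adjusted p = 0.00347), and PSBO2 had no call in any comparison, with -0.11 ± 0.070 in ref4-3.

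The small membrane subunits PSBW, PSBX and PSBY and the lumenal PSBTN all fell in ref4-3. PSBY (AT1G67740, chr1:25394031-25395249), which sits beside cytochrome b559 in the complex, stood at 721, 649 and 629 CPM in WT, 465, 444 and 639 in ref4-1, 391, 418 and 336 in ref4-3, 731, 691 and 685 in cdk8-1 and 442, 392 and 443 in ref4-3 cdk8-1. Its ref4-3 and ref4-3 cdk8-1 libraries overlapped and all lay below WT, with -0.80 ± 0.11 and -0.65 ± 0.11 against WT and 0.16 ± 0.11 between the 2 genotypes (adjusted p = 0.312). PSBW, PSBX and PSBTN changed by -0.56 ± 0.076, -0.53 ± 0.092 and -0.63 ± 0.088 in ref4-3, and all of these rose from ref4-3 to ref4-3 cdk8-1 (0.37, 0.38 and 0.36). PSBS, the protein that senses lumenal acidity and triggers the harmless loss of excess light energy, stood at 1044, 1135 and 1092 CPM in WT, 1059, 1131 and 1339 in ref4-1, 1152, 1203 and 1112 in ref4-3, 1265, 1286 and 1281 in cdk8-1 and 1273, 1297 and 1367 in ref4-3 cdk8-1. Its ref4-3 libraries overlapped with WT (0.08 ± 0.075, adjusted p = 0.398), and all libraries of cdk8-1 and ref4-3 cdk8-1 lay above WT. The rise in cdk8-1 (0.23 ± 0.075) was not called without any 1 of 5 libraries, and that in ref4-3 cdk8-1 (0.27 ± 0.075, adjusted p = 0.00798) held in all of these.

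Of the 12 photosystem I genes, 11 fell in ref4-3, 8 fell in ref4-1 and 9 were below WT in ref4-3 cdk8-1, and none was called in cdk8-1. Among all tested genes 19.6, 10.2 and 21.6% were called lower in these mutants, and in cdk8-1 11.8% were lower and 8.06% higher. For 3 of the 12 (PSAD1, PSAD2 and PSAE2) all cdk8-1 libraries lay above WT, as they did for 17.2% of all tested genes. PSAN (AT5G64040, chr5:25628521-25629708), a lumenal subunit at the plastocyanin side, fell most in ref4-3. It stood at 1289.8, 1895 and 1396 CPM in WT, 983, 996 and 1111 in ref4-1, 702, 748 and 730.1 in ref4-3, 1446, 1569.7 and 1745 in cdk8-1 and 1166, 1133 and 1232 in ref4-3 cdk8-1. The second WT library was far above the other two, and all ref4-3 libraries lay below all others. PSAN was at 47.6% of WT in ref4-3 (-1.07 ± 0.11, adjusted p = 4.62e-07) and rose by 0.70 ± 0.11 from ref4-3 to ref4-3 cdk8-1. PSAG (AT1G55670), the highest of the 12 per kilobase, stood at 2038, 2118 and 2114 CPM in WT, 1454, 1634 and 2032 in ref4-1, 1482, 1596 and 1421 in ref4-3, 2043, 2085 and 1986 in cdk8-1 and 1692, 1629.6 and 1681 in ref4-3 cdk8-1. It fell in ref4-3 (-0.48 ± 0.090) and was lower than WT in ref4-3 cdk8-1 (-0.33 ± 0.090), where all libraries lay between those of ref4-3 and WT.

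PSAD and PSAE form the stromal side where ferredoxin docks. PSAD1 (AT4G02770) stood at 1593, 1614 and 1584 CPM in WT, 1326, 1485 and 1804 in ref4-1, 1429.7, 1429 and 1257 in ref4-3, 1906, 1903 and 1749 in cdk8-1 and 1596, 1589.5 and 1589 in ref4-3 cdk8-1. PSAD2 (AT1G03130) stood at 590.3, 569 and 562 CPM in WT, 416, 424 and 542 in ref4-1, 376, 371 and 325 in ref4-3, 671, 663 and 629.8 in cdk8-1 and 486, 484 and 459.8 in ref4-3 cdk8-1. PSAD1 had no call in any of the 8 comparisons (-0.22 ± 0.088 in ref4-3, adjusted p = 0.0554), although its ref4-3 libraries lay below those of WT, and PSAD2 fell in ref4-3 (-0.68 ± 0.085). PSAE1 (AT4G28750) stood at 1217, 1394 and 1243 CPM in WT, 923, 1032 and 1146 in ref4-1, 862, 941 and 855 in ref4-3, 1288, 1293 and 1268 in cdk8-1 and 1059, 1055 and 1026 in ref4-3 cdk8-1. PSAE2 (AT2G20260) stood at 460.3, 479.6 and 448 CPM in WT, 375, 389.7 and 511 in ref4-1, 348, 359 and 358 in ref4-3, 505, 528 and 514 in cdk8-1 and 447, 439 and 437 in ref4-3 cdk8-1. Both PSAE genes fell in ref4-3, with -0.54 ± 0.076 and -0.38 ± 0.085.

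PSAH, PSAL and PSAO lie on the side of photosystem I where LHCII can bind. PSAH1 (AT3G16140) stood at 826, 903 and 874 CPM in WT, 662, 722 and 885 in ref4-1, 619.7, 692 and 609.6 in ref4-3, 919, 884 and 866 in cdk8-1 and 702, 694 and 708 in ref4-3 cdk8-1. PSAH2 (AT1G52230, chr1:19454798-19455668) stood at 1165, 1347 and 1176 CPM in WT, 868, 867 and 1022 in ref4-1, 681, 758 and 685 in ref4-3, 1261, 1276 and 1331 in cdk8-1 and 985, 946 and 972 in ref4-3 cdk8-1. PSAH2 was the more abundant copy in WT and fell more in ref4-3, with -0.80 ± 0.077 against -0.44 ± 0.085 for PSAH1. PSAL and PSAO changed by -0.47 ± 0.084 and -0.66 ± 0.076. PSAF, the docking subunit for plastocyanin, and PSAK changed by -0.65 ± 0.094 and -0.64 ± 0.082. PSAK had no call in ref4-3 cdk8-1 against WT (-0.15 ± 0.082, adjusted p = 0.157), while PSAL was lower (-0.36 ± 0.084, adjusted p = 0.00194).

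The 4 RBCS genes and RCA, the activase that frees Rubisco of inhibitory sugar phosphates, all fell in ref4-3 and were all lower than WT in ref4-3 cdk8-1. The shares of all tested genes called lower were 19.6% in ref4-3 and 21.6% in ref4-3 cdk8-1. RBCS1A (AT1G67090, chr1:25048158-25049667) stood at 12328, 13176 and 14149 CPM in WT, 9149.7, 10360 and 11232 in ref4-1, 9097, 10317 and 9058 in ref4-3, 15506, 16605 and 15165 in cdk8-1 and 9979, 11422 and 10957 in ref4-3 cdk8-1. RBCS3B (AT5G38410) stood at 5010.5, 5762 and 5545 CPM in WT, 3643, 4234 and 4847 in ref4-1, 3336, 3459 and 2911 in ref4-3, 5777, 5924 and 5586 in cdk8-1 and 3676, 3731 and 3689 in ref4-3 cdk8-1. For both genes all libraries of ref4-3 and of ref4-3 cdk8-1 lay below WT. RBCS1A changed by -0.48 ± 0.088 in ref4-3, -0.29 ± 0.088 in ref4-3 cdk8-1 and 0.18 ± 0.088 between them (adjusted p = 0.12), and RBCS3B by -0.75 ± 0.092, -0.56 ± 0.092 and 0.19 ± 0.092 (adjusted p = 0.119). RBCS1A rose in cdk8-1 with an adjusted p of 0.0495, a call lost without any 1 of 11 libraries.

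RBCS1B (AT5G38430) stood at 1947, 2002 and 2234 CPM in WT, 1455, 1538 and 1839 in ref4-1, 1518, 1516 and 1422 in ref4-3, 2218, 2628 and 2344 in cdk8-1 and 1385, 1465 and 1462 in ref4-3 cdk8-1. RBCS2B (AT5G38420) stood at 1939, 2039.8 and 1920.3 CPM in WT, 1759.9, 1762 and 2442 in ref4-1, 1414, 1503 and 1237 in ref4-3, 1676, 1922 and 1622 in cdk8-1 and 1273, 1336 and 1301 in ref4-3 cdk8-1. RBCS2B was high in the third ref4-1 library, and for both genes the libraries of ref4-3 and ref4-3 cdk8-1 overlapped and lay below WT. RBCS1B, RBCS2B and RBCS3B are neighbours on chromosome 5 and their coding sequences are 94.1 to 97.3% identical, so reads can be split between them and their single values are uncertain. Their sum gave -0.63 ± 0.092 in ref4-3, -0.56 ± 0.092 in ref4-3 cdk8-1 and 0.08 ± 0.091 between these genotypes (adjusted p = 0.568).

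RCA (AT2G39730, chr2:16570746-16573692) was the member of this class with the greatest change. It stood at 4066, 4230.1 and 4269 CPM in WT, 2605, 2638 and 3419.8 in ref4-1, 2374, 2243 and 2149 in ref4-3, 5629.6, 5706 and 5604 in cdk8-1 and 3312, 2993 and 3139.8 in ref4-3 cdk8-1. The groups of WT, ref4-3, cdk8-1 and ref4-3 cdk8-1 did not overlap. RCA was at 53.8% of WT in ref4-3 (-0.89 ± 0.088, adjusted p = 2.89e-07) and rose by 0.43 ± 0.087 in cdk8-1 (adjusted p = 0.00156) and by 0.48 ± 0.087 from ref4-3 to ref4-3 cdk8-1. It was the gene with the greatest fall from cdk8-1 to ref4-3 cdk8-1 among the 46 (-0.84 ± 0.088, adjusted p = 8.75e-07).

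The Calvin cycle enzymes had the smallest median change of the 6 classes in ref4-3 (-0.31): 5 of the 6 fell there, and 2 (SBPASE and GAPB) rose in cdk8-1. Of all tested genes, 19.6% were called lower in ref4-3 and 8.06% higher in cdk8-1. GAPA1 (AT3G26650), a subunit of the chloroplast glyceraldehyde phosphate dehydrogenase and the highest of the 6 per kilobase, stood at 1964, 2056 and 2058 CPM in WT, 1785, 1729.9 and 2035 in ref4-1, 1678, 1696 and 1685 in ref4-3, 1938, 2066 and 2049 in cdk8-1 and 1775, 1674 and 1771 in ref4-3 cdk8-1. SBPASE (AT3G55800), a phosphatase of the regeneration steps, stood at 719, 752 and 763 CPM in WT, 551, 574 and 665 in ref4-1, 531, 544 and 507 in ref4-3, 829, 891 and 873 in cdk8-1 and 639, 615 and 669 in ref4-3 cdk8-1. The chloroplast fructose bisphosphatase gene cpFBPase (AT3G54050) stood at 766, 833 and 768 CPM in WT, 652, 687 and 756 in ref4-1, 616, 604 and 579 in ref4-3, 862, 906 and 866 in cdk8-1 and 769, 726 and 787 in ref4-3 cdk8-1. All ref4-3 libraries of these genes lay below WT. SBPASE changed most (-0.50 ± 0.069, adjusted p = 1.76e-05), then cpFBPase (-0.40 ± 0.065) and PRK, which makes the sugar phosphate that Rubisco carboxylates (-0.35 ± 0.067). GAPA1 and PGK1, the phosphoglycerate kinase, changed by -0.26 ± 0.066 and -0.26 ± 0.069, and GAPB, the other subunit of the dehydrogenase, had no call (-0.17 ± 0.071, adjusted p = 0.0715).

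Whether ref4-3 had the same effect with and without cdk8-1 was tested by the interaction, the log2 change from cdk8-1 to ref4-3 cdk8-1 minus that from WT to ref4-3. These 2 contrasts share no library. The median change of the 46 was -0.52 with CDK8 intact and -0.31 in cdk8-1. By class it went from -0.69 to -0.36 for LHCA, from -0.76 to -0.31 for LHCB, from -0.53 to -0.26 for photosystem II, from -0.59 to -0.31 for photosystem I and from -0.31 to -0.23 for the Calvin cycle enzymes, and for the Rubisco class it was -0.51 and -0.64. The interaction was called positive for 9 genes and negative for 1, beside 3.07% of all genes positive and 2.05% negative. The 9 were antenna and photosystem I genes: LHCB3 (0.66 ± 0.11, adjusted p = 0.00244), PSAN (0.64 ± 0.15), LHCA4 (0.59 ± 0.10, adjusted p = 0.00239), LHCB4.2 (0.49 ± 0.10, adjusted p = 0.00956), LHCA1, LHCA3, PSAO, LHCB5 and PSAH2. Of these, LHCB3, PSAN, LHCA4, LHCB4.2 and PSAH2 overlap a gene on the other strand, and LHCA1, LHCA3, PSAO and LHCB5 overlap none. Ambiguous reads came to 4.18 to 6.67% of gene counts in ref4-3 and 2.40 to 2.74% in ref4-3 cdk8-1. Their part in these calls was not tested.

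LHCA3, LHCA4, LHCB3 and LHCB4.2 kept the interaction call whichever library was left out, and the count of positive calls was 4 without the second cdk8-1 library. It was 5 without the first cdk8-1 library, the third ref4-3 library, or the first or the third ref4-3 cdk8-1 library. The negative one was LHCB4.3 (-0.64 ± 0.16, adjusted p = 0.0286), whose call was lost without any 1 of 7 libraries. No photosystem II, Rubisco or Calvin cycle gene was called. Of all tested genes 3.07% were called positive and 2.05% negative, shares at which small classes can have no call. The median interaction was still 0.21 for photosystem II, where PSBQ2 reached 0.37, beside 0.23 for photosystem I. It was 0.05 for the Rubisco class and 0.06 for the Calvin cycle enzymes. For RCA the interaction was 0.05 ± 0.12, for RBCS1A -0.07 ± 0.12 and for RBCS1B -0.27 ± 0.12. The sum of RBCS1B, RBCS2B and RBCS3B, whose single values are uncertain, had 0.01 ± 0.13 (adjusted p = 0.975). PSBY had 0.08 ± 0.16 and PGK1 0.01 ± 0.10. Whether the classes differ from each other in this value was not tested.

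**Figure D4:**
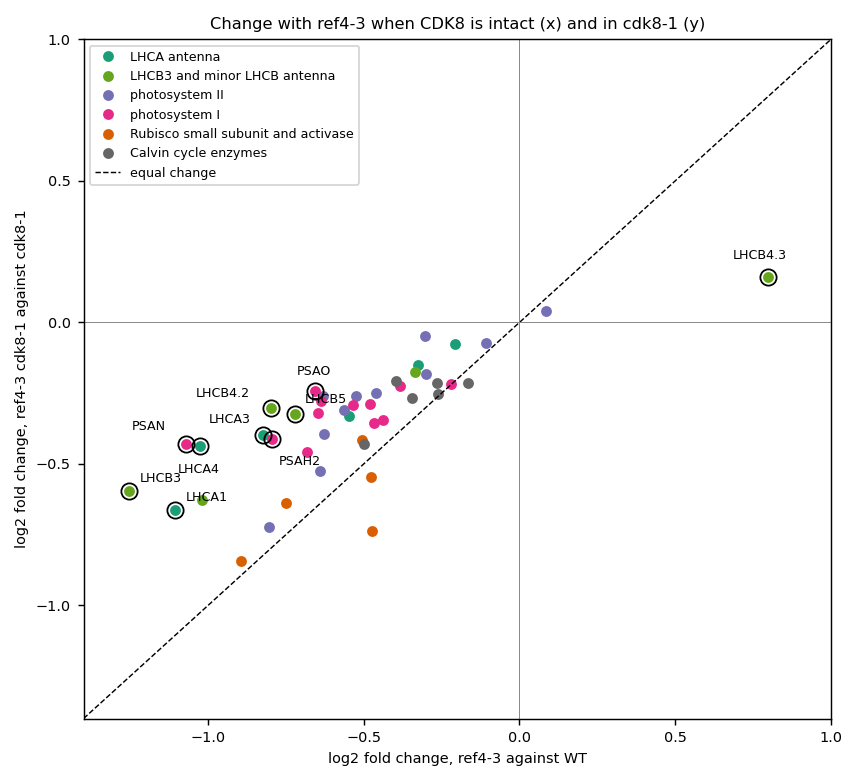
Log2 fold change of each of the 46 genes from WT to ref4-3 (x) and from cdk8-1 to ref4-3 cdk8-1 (y), coloured by class, with circles and names for the 10 genes called for the interaction and a dashed line of equal change. LHCB3 lies at -1.26 and -0.59. RBCS1B, whose single value is uncertain, lies below the dashed line, and the other Rubisco genes lie near it.

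Pairs of paralogs showed whether 1 copy carried more of a change than the other, measured as the share of 1 gene in the normalised counts of its pair. Shares were compared between the 6 libraries with ref4-3 and the 6 without, within the CDK8 and cdk8-1 backgrounds, by a two-sided exact permutation test over 400 arrangements, whose smallest p is 0.005, with adjustment over the 7 pairs or families. PSAD1 made up 73.0, 73.9 and 73.8% in WT, 76.1, 77.8 and 76.9% in ref4-1, 79.2, 79.4 and 79.5% in ref4-3, 74.0, 74.2 and 73.5% in cdk8-1 and 76.7, 76.7 and 77.6% in ref4-3 cdk8-1 of the PSAD counts. Its share was thus higher with ref4-3 in both backgrounds, by 5.77 and 3.08 percentage points (exact p = 0.005, adjusted p = 0.00875). LHCB4.1 made up 76.7, 75.9 and 76.5% in WT, 79.2, 81.3 and 79.7% in ref4-1, 82.1, 82.1 and 80.8% in ref4-3, 70.5, 69.5 and 69.3% in cdk8-1 and 71.0, 71.8 and 72.1% in ref4-3 cdk8-1 of the counts of LHCB4.1 and LHCB4.2. This share was also higher with ref4-3, by 5.27 and 1.82 points (exact p = 0.005, adjusted p = 0.00875), and lower in both genotypes with cdk8-1.

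PSAH1 made up 41.5, 40.1 and 42.6% in WT, 43.2, 45.4 and 46.4% in ref4-1, 47.7, 47.7 and 47.1% in ref4-3, 42.2, 40.9 and 39.4% in cdk8-1 and 41.6, 42.3 and 42.1% in ref4-3 cdk8-1 of the PSAH counts. It was higher by 6.07 points in ref4-3 than in WT and by 1.18 points in ref4-3 cdk8-1 than in cdk8-1, where the groups overlapped (exact p = 0.015, adjusted p = 0.021). PSBO1 made up 80.0, 80.1 and 79.9% in WT, 78.4, 79.0 and 78.2% in ref4-1, 77.8, 78.4 and 77.0% in ref4-3, 80.0, 79.9 and 78.9% in cdk8-1 and 78.5, 78.6 and 78.0% in ref4-3 cdk8-1 of the PSBO counts and differed with ref4-3 by -2.25 points in the CDK8 background and -1.23 points in cdk8-1 (exact p = 0.005, adjusted p = 0.00875). PSAE1 made up 72.6, 74.4 and 73.5% in WT, 71.1, 72.6 and 69.2% in ref4-1, 71.2, 72.4 and 70.5% in ref4-3, 71.8, 71.0 and 71.2% in cdk8-1 and 70.3, 70.6 and 70.1% in ref4-3 cdk8-1 of the PSAE counts and differed with ref4-3 by -2.12 and -0.97 points (exact p = 0.005, adjusted p = 0.00875). In the PSAD, PSAH and LHCB4.1 with LHCB4.2 pairs the gene that held its level better thus gained share, which was the major copy for PSAD1 and LHCB4.1 and the minor copy for PSAH1.

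PSBQ1 made up 37.4, 33.4 and 37.1% in WT, 35.8, 37.7 and 37.0% in ref4-1, 36.4, 36.9 and 33.7% in ref4-3, 36.9, 38.7 and 37.9% in cdk8-1 and 33.8, 33.9 and 33.0% in ref4-3 cdk8-1 of the PSBQ counts. Its share differed by -0.32 points between ref4-3 and WT and by -4.25 points between ref4-3 cdk8-1 and cdk8-1 (exact p = 0.045, adjusted p = 0.045). RBCS1A made up 58.1, 57.3 and 59.3% in WT, 57.2, 57.9 and 55.2% in ref4-1, 59.2, 61.4 and 61.9% in ref4-3, 61.6, 61.3 and 61.4% in cdk8-1 and 61.2, 63.6 and 62.9% in ref4-3 cdk8-1 of the RBCS counts and was higher with ref4-3 by 2.6 and 1.16 points (exact p = 0.04, adjusted p = 0.045). Both of these calls were lost without 1 library in most of the 12 cases, while those of the PSAD, PSAE, PSAH, PSBO and LHCB4 pairs held in all 12. The coding sequences of the pairs were 76.1 to 87% identical, and 87.7 to 90.1% between RBCS1A and the other RBCS genes. PSAD2 and LHCB4.2 overlap a neighbouring gene, while PSAD1 and LHCB4.1 overlap none. Both PSAH and both PSAE genes overlap a gene on the other strand, and the PSBO, PSBQ and RBCS genes overlap none. What ambiguous reads at these overlaps add to the shares was not tested.

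**Figure D5:**
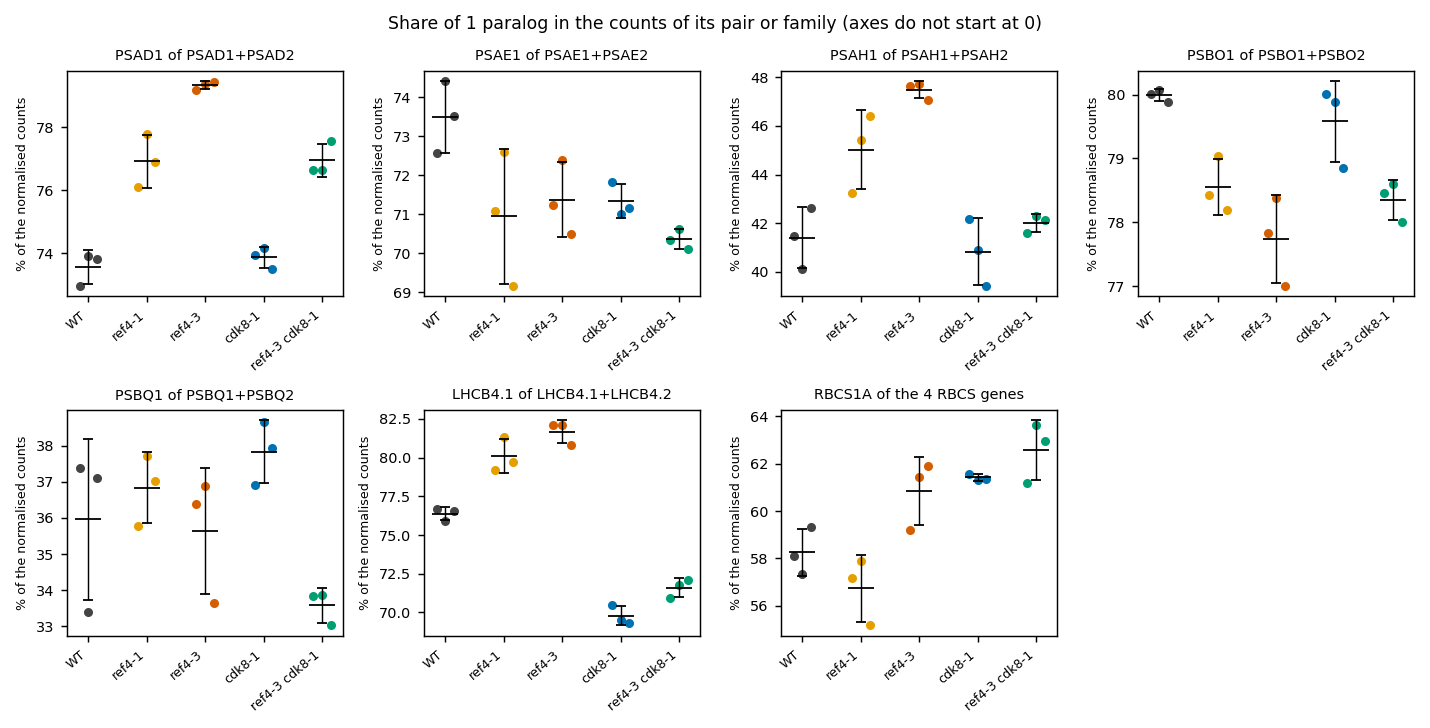
Share (percent, axes not starting at 0) of 1 paralog in the normalised counts of its pair or family in each library, with the mean and SD of the 3 libraries per genotype. The shares of PSAD1 and LHCB4.1 are higher in ref4-3 than in WT without overlap, by 5.77 and 5.27 points.

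Genes around the set gave further values. The 8 LHCB1 and LHCB2 genes of the main LHCII antenna all fell in ref4-3 (-1.82 to -0.69) and 7 of the 8 rose in cdk8-1, with values of single copies uncertain because of their near-identical sequences. Of 22 chlorophyll synthesis genes, 21 fell in ref4-3, 14 in ref4-1 and 16 rose from ref4-3 to ref4-3 cdk8-1, where the set of 46 had 40, 27 and 26. Over all tested genes these shares were 19.6, 10.2 and 15.9%. HEMA1, the first committed step, changed by -0.69 ± 0.067 in ref4-3 and 0.39 ± 0.066 in cdk8-1, and CHLH, a subunit of magnesium chelatase, by -0.60 ± 0.060 and 0.35 ± 0.060. Its activator GUN4 had no call in ref4-3 (-0.20 ± 0.11). CAO, which makes chlorophyll b for the LHC proteins, changed by -0.38 ± 0.067 in ref4-3 and rose in cdk8-1 (0.77 ± 0.066) and in the double mutant (0.55 ± 0.065), and the light-dependent reductase genes PORB and PORC changed by -0.99 ± 0.064 and -0.29 ± 0.061 in ref4-3.

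Of 13 genes for electron transport and ATP synthase, 9 fell and 1 rose in ref4-3, where 19.6% of all tested genes fell and 20.3% rose. PETC, the Rieske protein, changed by -0.43 ± 0.070, the plastocyanin genes PETE1 and PETE2 by -0.27 ± 0.091 and -0.51 ± 0.10, the ferredoxin gene FD2 by -0.62 ± 0.11 and ATPC1 of the ATP synthase by -0.40 ± 0.068, and the ferredoxin reductase gene FNR1 had no call (-0.16 ± 0.072). Of 13 further Calvin cycle genes, 6 fell in ref4-3 and none rose. GAPA2, the second gene for the GAPA subunit, changed by -0.67 ± 0.075 where GAPA1 changed by -0.26 ± 0.066, and FBA2 changed by -0.26 ± 0.090, while TKL1 (-0.16 ± 0.068) and CP12-2 (-0.15 ± 0.078) had no call. Of 9 photorespiration genes 4 fell and none rose in ref4-3, with -0.28 ± 0.061 for SHM1 and no call for GLDP1 (0.13 ± 0.075).

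Among 17 regulators of photosynthesis genes, 4 fell and 6 rose in ref4-3, shares of 23.5 and 35.3% beside 19.6% of all tested genes lower and 20.3% higher. GLK2 stood at 45.4, 38.9 and 38.5 CPM in WT, 25.7, 27.4 and 35.2 in ref4-1, 25.6, 21.9 and 22.2 in ref4-3, 64.6, 56.9 and 62.3 in cdk8-1 and 48.4, 43.2 and 43.9 in ref4-3 cdk8-1. It was low in both MED5B mutants, high in cdk8-1 and near WT in ref4-3 cdk8-1, with -0.81 ± 0.11 in ref4-3 (adjusted p = 7.75e-06), 0.58 ± 0.10 in cdk8-1 and 0.14 ± 0.10 in ref4-3 cdk8-1. GLK2 was singled out after its values were seen. Raw counts of CGA1, another of the 17, were 47, 39 and 83 in WT and 244, 125 and 200 in ref4-3. They were 35, 33 and 33 in cdk8-1 and 63, 72 and 62 in ref4-3 cdk8-1. GLK1 had no call in ref4-3 (-0.10 ± 0.065, adjusted p = 0.249). PIF4, a light-labile growth regulator, changed by -0.78 ± 0.077 in ref4-3 and its interaction was 0.51 ± 0.11 (adjusted p = 0.00998). HY5, a light-response activator at 5.09 ± 1.11 CPM in WT, rose by 1.05 ± 0.19 in ref4-3, and SIG5, a sigma factor for plastid transcription, rose in ref4-3 (0.61 ± 0.14), cdk8-1 (0.64 ± 0.15) and ref4-3 cdk8-1 (1.29 ± 0.13).

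Across the set, the median log2 change in ref4-3 was -0.51 for the 17 genes with a G-box and -0.53 for the 29 without. For the I-box, the medians were -0.64 for 22 genes with one and -0.47 for 24 without, and for CCAATC -0.72 for 11 and -0.48 for 35. The ranges of the genes with and without each motif overlapped. These are descriptions with no test.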

How the data were processed

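Whole rosettes of 5 genotypes were profiled by RNA sequencing, with 3 libraries each. The deposited table holds counts of reads per gene, made by the authors with Trimmomatic, TopHat2 2.1.0 and HTSeq 0.6.1 on TAIR10, per the submitters' processing notes; how reads were assigned, and whether by strand, is not given in the sources used here. Summary rows that name no gene were left out: reads without a feature were 0.667 to 1.05%, ambiguous ones 1.63 to 6.67% and those not uniquely placed 2.37 to 6.62% of the gene counts.

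From these deposited counts, genes over 1 CPM in at least 3 libraries were kept (18935 of 33601), scaled by TMM, and tested with the quasi-likelihood test of edgeR (4.0.16; R 4.3.3). One fit took all 15 libraries, with Benjamini-Hochberg adjustment over the 18935 genes. The SE is the fold change divided by the square root of F. Normalised CPM are set by total and TMM factor. The script was tested on simulated counts. Paralog shares were compared by an exact permutation test. Alternatives were other scalings, other filters, DESeq2 1.42.0, limma-voom (limma 3.58.1), a replicate block, only the groups compared, summed RBCS genes, and each library left out. All 46 genes are named; those given in every library are, per class, the highest per kilobase and up to 2 with the greatest change in ref4-3, plus all paralog pairs and RBCS genes, and LHCB4.3, PSBS and GLK2, which were added after their values were seen. The members and lists were chosen with earlier results of these data known. Gene models and promoter windows came from RefSeq's TAIR10.1; plastid loci were summed per library and not described singly.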

Additional observations from a re-analysis of the deposited data

Results flagged for a closer look

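For 10 genes the change with ref4-3 differed between plants with CDK8 intact and plants with cdk8-1, by the interaction term of the edgeR quasi-likelihood fit. The difference, as log2 change in cdk8-1 minus log2 change with CDK8, was 0.66 for LHCB3, 0.64 for PSAN, 0.59 for LHCA4, 0.49 for LHCB4.2, 0.44 for LHCA1, 0.42 for LHCA3, 0.41 for PSAO, 0.40 for LHCB5 and 0.38 for PSAH2, and -0.64 for LHCB4.3. The first 9 fell less with ref4-3 when cdk8-1 was present, and LHCB4.3 rose with ref4-3 only where CDK8 was intact by the calls of each background. Without at least 1 library the call was lost for LHCA1 and PSAN (3 of 15 cases each), LHCB4.3 (7), LHCB5 (8), PSAH2 and PSAO (10 each).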

How the results depend on the processing

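No value changed sign where it was called. With only the 2 groups of a comparison in the fit, 13 genes were lower in ref4-1 and 5 lower in ref4-3 than in ref4-1. With library totals as the only scaling, 3 genes were higher in ref4-1, 2 higher in ref4-3 and 16 lower in ref4-3 cdk8-1 than WT, and the median of all tested genes against WT then stood at 0.11 (ref4-1), 0.19 (ref4-3) and 0.14 (ref4-3 cdk8-1). The cause of these moves was not tested. Leaving out 1 library gave 18 to 38 lower and 1 to 2 higher genes in ref4-1, 40 to 43 lower in ref4-3, 5 to 16 higher in cdk8-1, 21 to 29 lower and 1 to 2 higher in ref4-3 cdk8-1 against WT, 21 to 35 higher against ref4-3, 28 to 41 lower against cdk8-1, 14 to 34 lower in ref4-3 against ref4-1, and 4 to 13 positive and 0 to 1 negative interactions. Without the third ref4-1 library, 16 genes were higher in cdk8-1 and 13 interactions were positive. Mean share differences with ref4-3 ranged from 4.27 to 4.51 points for PSAD1, 3.42 to 3.77 for LHCB4.1, 3.27 to 3.96 for PSAH1, -1.92 to -1.56 for PSBO1, -1.80 to -1.32 for PSAE1, -2.92 to -1.79 for PSBQ1 and 1.61 to 2.29 for RBCS1A. Replicate numbers did not pair the libraries (same-number correlations of -0.19 to 0.18, median 0.014; 6 of 15 libraries correlated best with their own number). With the replicate block, 3 of 368 gene values lost their call, leaving 8 positive interactions. DESeq2 added 27 calls and lost none, and limma-voom added 13 and lost none.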
